A study of Mus musculus with 2 samples.

Results

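The glycosyltransferases and sulfotransferases described here build the sugar chains of mucins and of the cell surface. They were taken as all rows of the array table with 1 gene symbol that belongs to the Galnt, B3gnt, B4galt, B3galt, Gcnt, St3gal, St6gal, St6galnac, St8sia, Fut or Chst families, together with C1galt1 and C1galt1c1. The rule found 87 genes among 31261 rows with 1 symbol. Of these, 84 encode proteins, and the other 3 are the antisense and noncoding transcripts Galnt6os and St8sia3os and the pseudogene Fut4-ps1. By enzyme step there were 20 members in initiation, 8 in core formation, 19 in extension, 18 in sialylation, 8 in fucosylation and 14 in sulfation. Another 4 rows that carry St6galnac1, St6galnac4 with St6galnac6, B3gnt2 and Fut11 are annotated to several genes and are not given; all 4 were under the limits described below on both arrays.

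Mucin-type chains start in the Golgi when a GALNT enzyme attaches N-acetylgalactosamine to a serine or threonine. C1GALT1, which needs the chaperone encoded by C1galt1c1, or the enzyme of B3gnt6 then sets the core, GCNT enzymes branch it, and alternating N-acetylglucosamine and galactose extend it. Sialic acid, fucose or sulfate cap the chain. In the gut these chains make the mucus gel of goblet cells and the glycocalyx of enterocytes; several members act on N-glycans, glycolipids or proteoglycans instead.

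Both groups were Lgr5-GFP-positive intestinal stem cells sorted from the small intestine of 8-week-old mice that carried Lgr5GFP-CreERT2, so both carry that allele. One group was circPan3+/+ and the other circPan3-/-, which lacks a circular RNA of the Pan3 gene. There was 1 array of each genotype, and the labels leave the number of mice behind each sample unstated. With no replicates there is no error and no test: each difference below compares 2 arrays, not 2 genotypes, and is circPan3-/- minus circPan3+/+ of the deposited log2 RMA signal.

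The 2 arrays differed as a whole. The median difference over 18316 named genes was 0.28, and loess on level put the usual difference at 0.10 for the dimmest and 0.60 for the brightest member; the value left after subtracting it is called the level-adjusted difference. The 95th percentile of negative control rows, called the limit, was 5.06 for circPan3+/+ and 5.56 for circPan3-/-. Many rows repeat a value exactly, 69.1% of them for circPan3+/+ and 4.20% for circPan3-/-, and so did 64 of the 87 members against 1. No label tells whether the arrays were scanned or processed together. The stem cell marker Lgr5 was above its limit on both arrays, at 10.91 in circPan3+/+ and 7.02 in circPan3-/- cells, and Olfm4 at 11.53 and 10.28.

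The median of the family lay near that of other genes, while the share of members at least 2-fold higher in circPan3-/- cells was above theirs. Several initiating enzymes were higher, extension enzymes had a median near 0 as deposited, and most sulfotransferases were lower. The median over all 87 members was 0.24, against 0.28 over the named genes, and 38 of 87 lay above that median. At least 2-fold higher were 12 of 87 members, or 13.8%, against 7.61% of named genes. At least 2-fold lower were 2 members, or 2.3%, against 2.26%. The 12 were Galnt4, Galnt7, Galnt12, Galnt5, Galnt6, Gcnt4, C1galt1c1, Gcnt7, St6galnac2, St3gal4, Fut4 and Fut8, and the 2 were St8sia4 and Chst7. The spans of Galnt4, Gcnt7 and Chst7 overlap those of the protein-coding genes Poc1b, Rtf2 and Slc9a7. Probes that lie in both genes of such a pair were not separated.

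Most members were dim. On both arrays 66 of 87, or 75.9%, lay under the limits, as did 78.6% of named genes. Above the limit were 12 members on both arrays, 6 on the circPan3-/- array alone and 3 on the circPan3+/+ array alone. Where a value under its limit counts only as that limit, 6 members were at least 2-fold higher, namely Galnt4, Galnt7, Galnt6, Gcnt4, St3gal4 and Fut8, against 2.69% of named genes. By that count 0 members were lower, against 0.42%. After level adjustment 6 members were at least 2-fold higher, against 2.71% of named genes: Galnt4, Galnt7, Galnt12, Galnt5, St6galnac2 and Fut4. By that measure 3 members were at least 2-fold lower, Chst7, Chst1 and St8sia4, against 4.06%. Centring on the median of named genes gave 8 higher and 5 lower members, against 3.65% and 3.7%. Quantile normalization gave 8 and 4, against 3.43% and 3.65%.

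Markers of other cells differed between the arrays as well. Of 11 goblet cell markers 9 were at least 2-fold higher and 0 lower in circPan3-/- cells, and their summed linear signal was 1388 in circPan3+/+ and 6150 in circPan3-/- cells, with differences from -0.95 for Ccl9 to 3.40 for Klk1. All 5 Paneth cell markers measured were at least 2-fold higher, summing to 1591 and 6291, and all 4 enteroendocrine markers were. Of 9 enterocyte markers 4 were at least 2-fold lower, summing to 2903 and 1859. Tuft cell markers were under both limits, with 3 of 5 at least 2-fold higher, as were the 3 T cell markers, with 0 of 3 apart by 2-fold. Of the 7 stem cell markers 4 were at least 2-fold higher and 2, Lgr5 and Olfm4, lower. The sort kept GFP-positive cells, and in a bulk sample more cells of a type and more RNA per cell cannot be told apart; the part of these markers in the members' values was not tested.

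**Figure D1:**
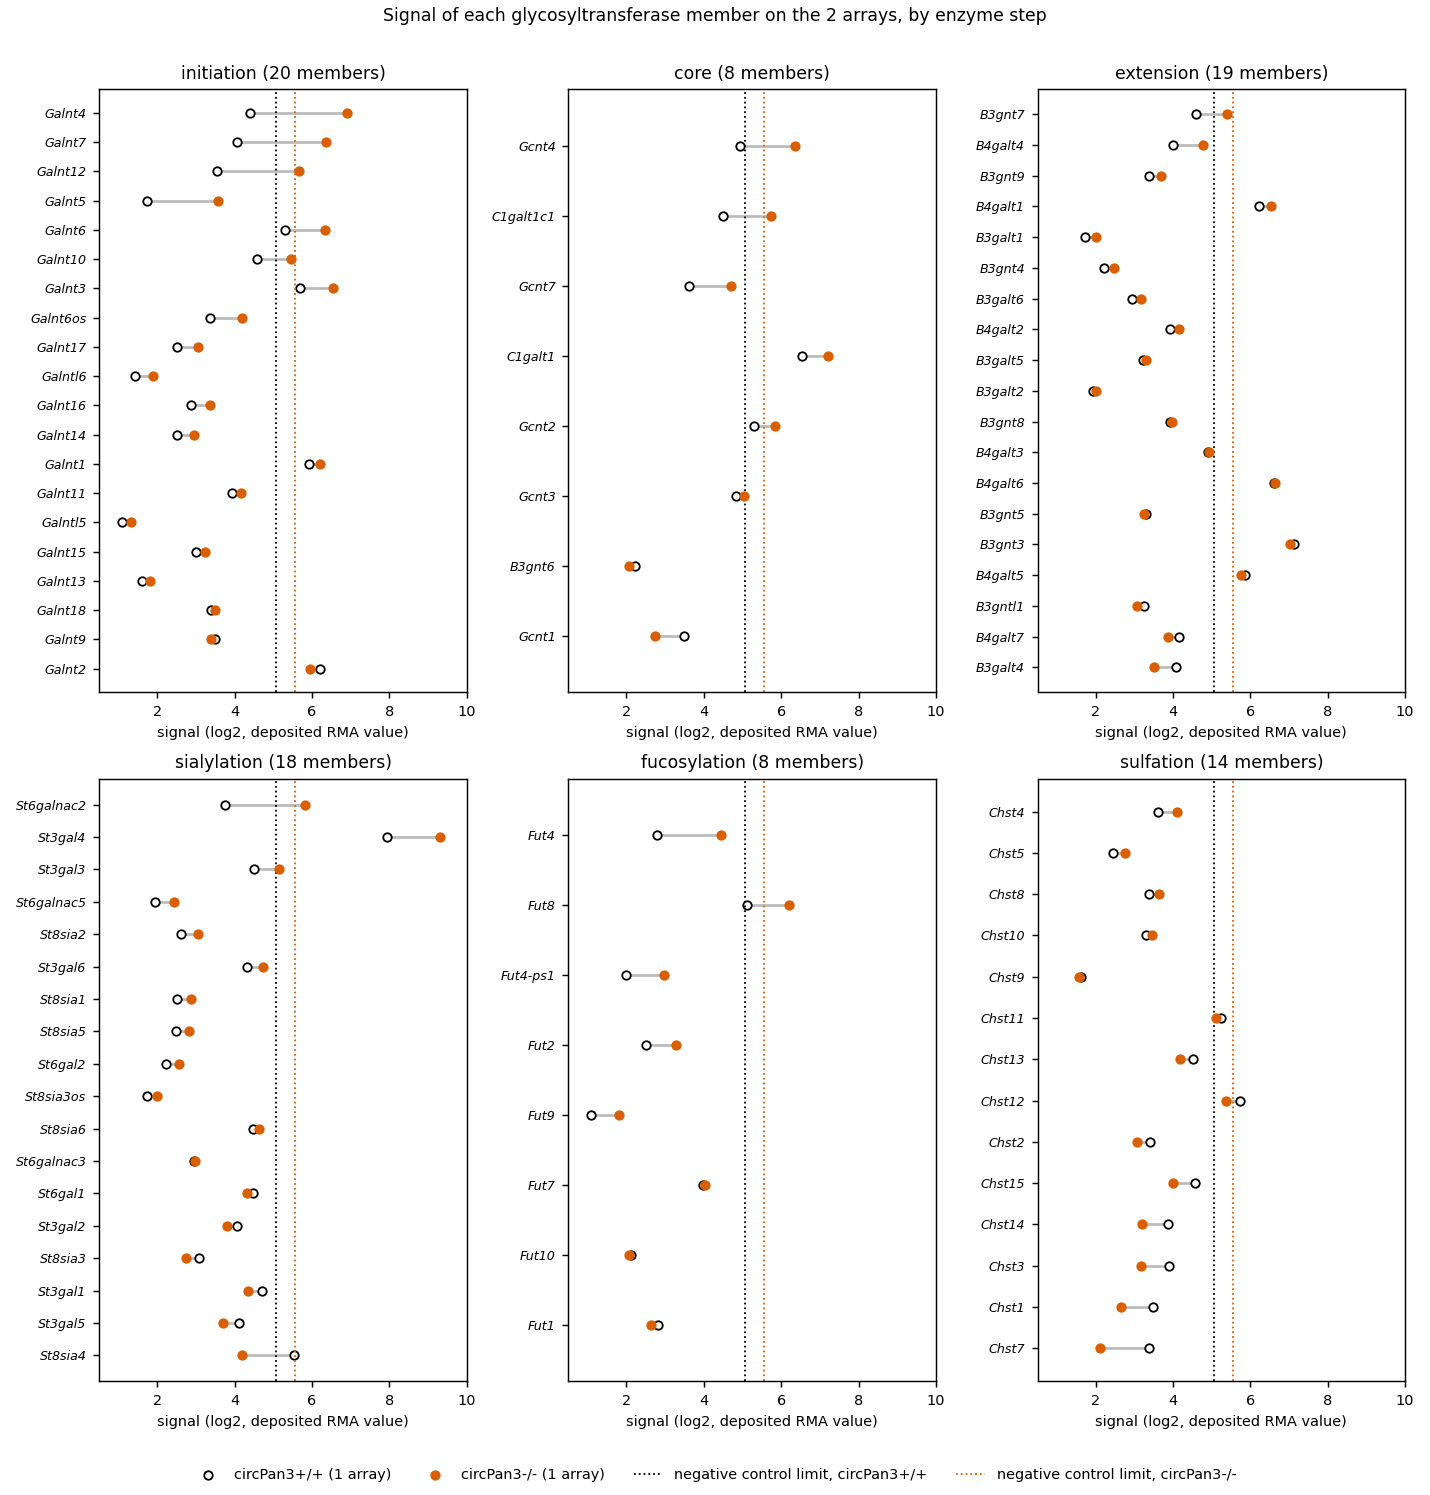
Signal of all 87 members on both arrays (horizontal axis, deposited log2 RMA value), 1 panel per enzyme step, with members ordered by their difference. Open points are circPan3+/+, filled points circPan3-/-, and dotted lines the negative control limits of 5.06 and 5.56; long bars to the right mark Galnt4, Galnt7, Galnt12 and St6galnac2, and 66 members have both values under the limit of their own array.

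The stretches just upstream of the start sites are shown for Galnt7, Gcnt7, St3gal4 and Fut4, 1 member each of initiation, core formation, sialylation and fucosylation. They are the members for which each of these holds: the signal was at least 2-fold higher, the RefSeq promoter table gives a single start, and the window lies outside the span of the gene. Each is the 250 bases before the start, 5′ to 3′ on the strand of the gene, and capitals mark a GC box, GGGCGG on either strand.
Galnt7, GRCm38.p6, chr8:57653056-57653305, minus strand: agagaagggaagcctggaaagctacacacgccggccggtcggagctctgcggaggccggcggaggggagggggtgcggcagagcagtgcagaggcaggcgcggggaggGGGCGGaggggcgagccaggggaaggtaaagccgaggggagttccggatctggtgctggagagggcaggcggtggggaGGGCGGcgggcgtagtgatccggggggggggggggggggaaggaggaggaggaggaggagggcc
Gcnt7, GRCm38.p6, chr2:172458597-172458846, minus strand: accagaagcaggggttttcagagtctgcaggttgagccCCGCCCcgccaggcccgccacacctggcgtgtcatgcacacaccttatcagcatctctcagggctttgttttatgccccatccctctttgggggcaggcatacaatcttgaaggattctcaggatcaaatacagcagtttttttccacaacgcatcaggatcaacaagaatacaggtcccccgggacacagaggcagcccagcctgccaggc
St3gal4, GRCm38.p6, chr9:35116865-35117114, minus strand: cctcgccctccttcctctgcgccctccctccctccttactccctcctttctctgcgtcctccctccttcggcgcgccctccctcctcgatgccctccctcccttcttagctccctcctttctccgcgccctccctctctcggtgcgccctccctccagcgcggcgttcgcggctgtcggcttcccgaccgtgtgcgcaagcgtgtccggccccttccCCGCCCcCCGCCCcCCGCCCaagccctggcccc
Fut4, GRCm38.p6, chr9:14752123-14752372, minus strand: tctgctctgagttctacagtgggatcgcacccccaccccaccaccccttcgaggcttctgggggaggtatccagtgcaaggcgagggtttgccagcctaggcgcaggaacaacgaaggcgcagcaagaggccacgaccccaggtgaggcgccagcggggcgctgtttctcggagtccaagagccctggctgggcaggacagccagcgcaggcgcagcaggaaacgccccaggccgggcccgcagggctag
The Galnt7 window held 2 GC boxes, the Gcnt7 window 1, the St3gal4 window 3 and the Fut4 window none. CpG dinucleotides numbered 19 for Galnt7, 25 for St3gal4 and 16 for Fut4, above the median of 10 in 21263 windows of protein-coding genes, and 6 for Gcnt7, below it. The windows of Galnt7 and St3gal4 were 73.6% and 72.8% G or C, that of Fut4 67.6% and that of Gcnt7 55.6%. The 4 windows thus had no common count of GC boxes or CpG dinucleotides.

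The table held 86 such windows for 65 of the 87 members. Their median was 14 CpG dinucleotides. A GC box stood in 53.5% of them, against 42.6% of all windows, and a TATA box, TATAAA, in 2 windows or 2.33%, against 11.6%. The AP-1 site TGANTCA stood in 5.81% against 6.13%, the CRE core TGACGT in 6.98% against 7.37%, and the E-box CACGTG in 6.98% against 6.63%, each counted on both strands. A match describes letters only. Members' promoters thus held few TATA boxes and, for the other motifs, shares near those of all promoters except the GC box.

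The polypeptide N-acetylgalactosaminyltransferase genes held the 3 highest members of the whole family. The median difference of the step was 0.48 over 20 members, the antisense transcript Galnt6os included. Above 0 were 18 of 20, where 75.4% of named genes were, and 12 were above the named-gene median. At least 2-fold higher were 5 of 20, and 0 were lower, against 7.61% and 2.26% of named genes. After level adjustment the median was 0.30 and 4 remained at least 2-fold higher, against 2.71% of named genes. Without Galnt6os the medians were 0.47 as deposited and 0.27 after level adjustment.

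Galnt4, whose enzyme prefers peptides that already carry N-acetylgalactosamine, gave log2 signals of 4.40 for circPan3+/+ and 6.91 for circPan3-/- cells. It was thus higher by 2.51, level-adjusted 2.00, or at least 3.60-fold from the limit. Galnt4 lies within the span of Poc1b, a centriole gene with 4.58 and 5.72, and probes that lie in both were not separated here. Poc1b was also higher, by 1.14, less than Galnt4.

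Galnt7, another enzyme that extends partly glycosylated peptides, had 4.07 and 6.37, a difference of 2.30 and at least 2.48-fold. Its circPan3+/+ value stood in 173 rows of the table. Galnt12, a transferase of the digestive tract, had 3.53 and 5.66, a difference of 2.12, which allows at least 1.51-fold. These 3 genes were the only initiation members under the limit on the circPan3+/+ array and above it on the other.

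Galnt6 had 5.29 and 6.34, a difference of 1.05 or 2.07-fold, between values above both limits. Its level-adjusted difference was 0.53, short of 2-fold, and its antisense partner Galnt6os had 3.36 and 4.18. Galnt3, a broad O-glycan initiator, had 5.68 and 6.54, a difference of 0.86. These bright members were higher by less than Galnt4 and Galnt7.

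Galnt1 and Galnt2, the widely expressed initiators, stayed close to level. Galnt1 had 5.93 and 6.20, 0.27 higher; centring left -0.01 and level adjustment -0.27. Galnt2 had 6.20 and 5.96, a difference of -0.24, and was the one initiation member above both limits with a lower signal in circPan3-/- cells. Relative to other genes of their level, both were lower.

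Galnt5 had the fourth largest difference of the step, 1.85, from 1.72 to 3.57, but both values lay under the limits and no fold is given. Galnt10 had 4.58 and 5.45, 0.88 higher, with neither value past its limit. The remaining members, Galnt9, Galnt11, Galnt13, Galnt14, Galnt15, Galnt16, Galnt17, Galnt18, Galntl5 and Galntl6, were under both limits too, with differences from -0.11 for Galnt9 to 0.55 for Galnt17. Apart from Galnt9 these members lay within the middle 50% of named genes. Centring put 5 more of them below 0, namely Galnt11, Galnt13, Galnt15, Galnt18 and Galntl5.

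**Figure D2:**
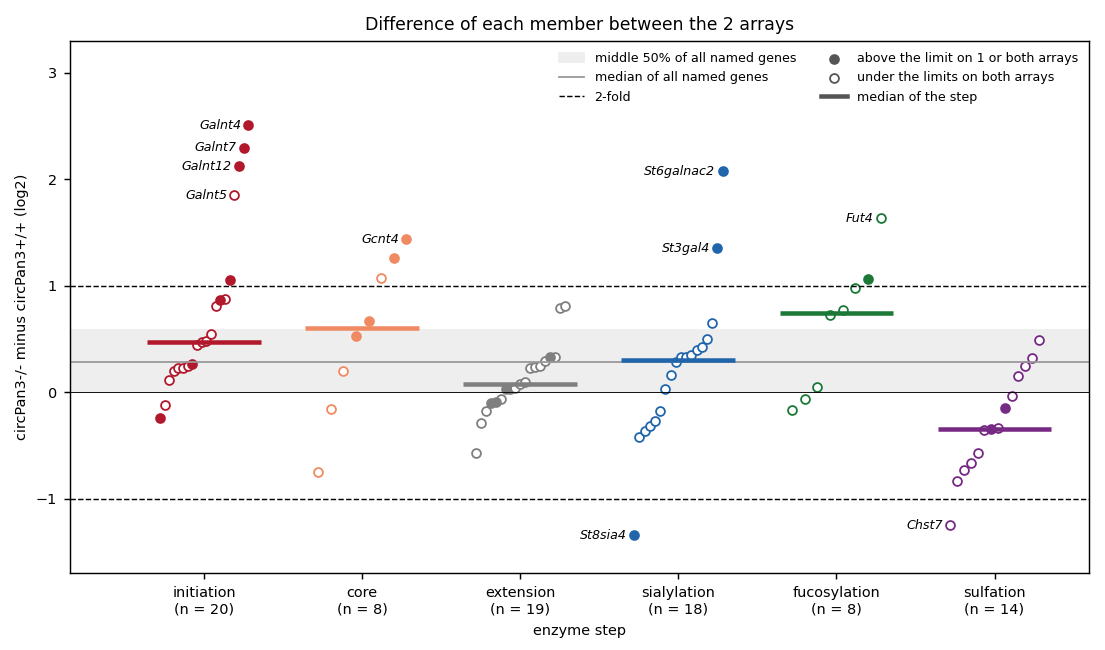
Difference between the arrays (vertical axis, circPan3-/- minus circPan3+/+, log2) for each member by enzyme step, with thick lines at the step medians from 0.75 in fucosylation to -0.34 in sulfation. Filled points are above the limit on 1 or both arrays, open points under both, the grey band is the middle 50% of named genes around their median of 0.28, and dashed lines mark 2-fold.

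Core enzymes went both ways. As deposited 6 of 8 were above 0, about the share of all named genes, 75.4%, and the median was 0.60. At least 2-fold higher were 3, Gcnt4, C1galt1c1 and Gcnt7, and 0 were lower, against 7.61% and 2.26% of named genes. After level adjustment the median was 0.07 and 0 members were 2-fold apart, with Gcnt4 at 0.93, C1galt1c1 at 0.79 and Gcnt7 at 0.72 on one side and Gcnt1 at -0.95 on the other.

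C1galt1, the core 1 galactosyltransferase, was at 6.54 on the circPan3+/+ array and at 7.21 on the other, higher by 0.67 or 1.59-fold and by 0.11 after level adjustment. Its chaperone gene C1galt1c1, without which C1GALT1 is not active, had 4.48 and 5.75, a difference of 1.26 and at least 1.61-fold. The circPan3+/+ value of C1galt1c1 lay under the limit. Both genes were thus higher as deposited. The difference of C1galt1c1 was larger, but its bound of at least 1.61-fold lay near the 1.59-fold of C1galt1.

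Gcnt4, a core 2 branching gene, had 4.92 and 6.36, a difference of 1.44 and at least 2.46-fold. Gcnt2, which branches poly-N-acetyllactosamine, had 5.31 and 5.84, a difference of 0.53 between values above both limits. Gcnt3, the mucin-type branching gene of the gut, had 4.84 and 5.04, a difference of 0.20 that turned to -0.25 after level adjustment, under both limits. Of these 3 branching genes only Gcnt3 changed sign with the scaling.

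B3gnt6, which makes the core 3 structure of colonic mucin, was dim on both arrays at 2.23 and 2.07. Gcnt1, the broadly expressed core 2 gene, had the lowest difference of the step, -0.75, from 3.49 to 2.75, and Gcnt7 had 3.62 and 4.70. All 3 lay under the limits, so no fold is given.

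The genes that lengthen the chain differed little between the arrays as deposited. The median over 19 members was 0.07, below that of named genes, and only 5 of 19 were above the named-gene median. Centring put the median at -0.21 and level adjustment at -0.22. Of 19 members, 0 were 2-fold apart in either direction, as deposited, after centring, after level adjustment or after quantile normalization. Among named genes, 7.61% passed 2-fold upward and 2.26% downward as deposited, and 2.71% and 4.06% after level adjustment. For 19 members a count of 0 lies not far from those shares. The range was -0.57 for B3galt4, a ganglioside galactosyltransferase gene, to 0.81 for B3gnt7.

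The 4 members above both limits were close to level as deposited. B3gnt3, which extends core 1 chains, had 7.12 and 7.03, a difference of -0.09, and B4galt5, a lactosylceramide synthase gene, had 5.87 and 5.77, a difference of -0.10. B4galt6, the other lactosylceramide synthase gene, had 6.61 and 6.64. B4galt1, the main galactosyltransferase of N-glycans, had 6.21 and 6.54, a difference of 0.33.

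Level adjustment put all 4 below 0, at -0.66 for B3gnt3, -0.62 for B4galt5, -0.53 for B4galt6 and -0.22 for B4galt1; centring left B4galt1 at 0.05. By family, the median was 0.05 over 7 B3gnt members, 0.03 over 7 B4galt members and 0.10 over 5 B3galt members. Apart from the 4, the 15 other members were under the limits on both arrays, among them B3galt5, which builds type 1 chains, with 3.22 and 3.31. B3galt6 and B4galt7, which make the linker of proteoglycans, had differences of 0.24 and -0.29.

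**Figure D3:**
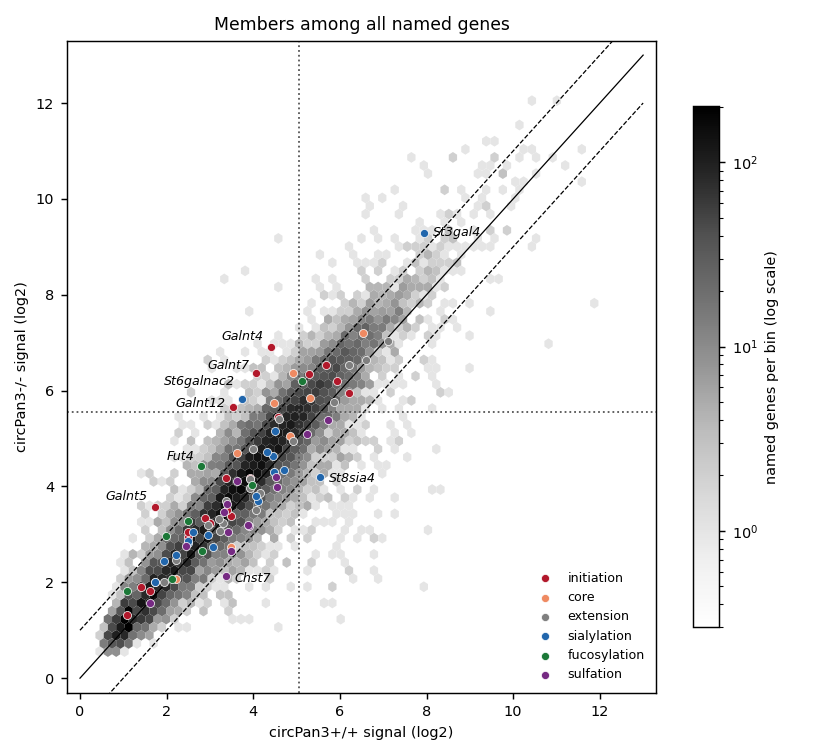
Signal on the circPan3-/- array (vertical, log2) against the circPan3+/+ array (horizontal, log2) for the 18316 named genes (grey bins, darker with more genes) and the 87 members (points coloured by step). The solid line marks equal signal, dashed lines 2-fold and dotted lines the limits; most members lie in the dense cloud, with 12 above the upper 2-fold line, Galnt4 and Galnt7 furthest, and 2, St8sia4 and Chst7, below the lower one.

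Sialyltransferase genes went both ways, with the highest and the lowest members further apart than in any other step. The median over 18 members, the noncoding St8sia3os included, was 0.31, and 0.07 after level adjustment. Over the 17 protein-coding members these medians were 0.33 and -0.0085. Of the 18, at least 2-fold higher were 2, or 11.1%, against 7.61% of named genes. At least 2-fold lower was 1, or 5.56%, against 2.26%, and 15 were neither. The largest differences belonged to St6galnac2 and St8sia4.

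St6galnac2, which adds sialic acid to the N-acetylgalactosamine at the base of O-glycans, had 3.75 in circPan3+/+ and 5.82 in circPan3-/- cells. The difference was 2.07, level-adjusted 1.63, and allows at least 1.69-fold; the circPan3+/+ value stood in 510 rows. St3gal4, which sialylates terminal galactose, had 7.94 and 9.29, a difference of 1.35 or 2.55-fold. It was the one sialyltransferase above both limits, and its level-adjusted difference was 0.75, short of 2-fold.

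St8sia4, a polysialyltransferase gene, went the other way with 5.54 and 4.20. The difference was -1.34, level-adjusted -1.79, with the circPan3-/- value under its limit; that limit lies above the circPan3+/+ value, so no fold is given. Myeloid markers were lower on the same array: 6 of 7 were at least 2-fold lower, against 2.26% of named genes. Among the 6 was Cd68 at 6.97 and 4.21, while Lyz2 had 10.55 and 10.51. All 6 lay under the limit on the circPan3-/- array. With bounds, 2 of the 7 were at least 2-fold lower, against 0.42% of named genes. The summed linear signal of the 7 was 1952 in circPan3+/+ and 1552 in circPan3-/- cells, with Lyz2 the brightest on both arrays. Of the 7, 0 were under both limits, and their part in the value of St8sia4 was not tested.

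The other 15 members were under both limits. St3gal1, which caps core 1 chains, had 4.72 and 4.35, St6gal1, the sialyltransferase of N-glycans, 4.48 and 4.31, and St3gal5, the GM3 synthase gene, 4.11 and 3.70. St3gal3 had 4.50 and 5.15 and St3gal6 4.33 and 4.72. By family the median was 0.06 over 6 St3gal members and 0.28 over 7 members with the St8sia prefix, St8sia3os included. St3gal4 therefore stood apart from the rest of its family, whose other members ran from -0.42 to 0.65.

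Fucosyltransferase members had the highest step median as deposited, but most of them were too dim for a fold. Over members whose circPan3+/+ value no other row shared, only Fut1 and Fut8, the median was 0.45, under the 0.96 of initiation. In initiation such members were only Galnt2, Galnt3, Galnt4 and Galnt6. The median over the 8 fucosylation members was 0.75, and 0.57 after level adjustment. Of the 8, 7 lay under both limits. At least 2-fold higher were 2 and 0 were lower, against 7.61% and 2.26% of named genes.

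Fut8, which adds the core fucose of N-glycans and not of mucins, was the one member above both limits, with 5.12 in circPan3+/+ and 6.19 in circPan3-/- cells. The difference was 1.07 or 2.10-fold, level-adjusted 0.56. Fut4, a gene of Lewis X synthesis, had 2.80 and 4.44, a difference of 1.63 with no fold. Its level-adjusted difference of 1.37 was the largest of the step.

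Fut2, which makes the H antigen of the gut epithelium, had 2.51 and 3.27, a difference of 0.77 under both limits, and its circPan3+/+ value stood in 1579 rows. Fut9 had 1.09 and 1.82, and its lower value was the most shared of all members along with that of Galntl5, standing in 3702 rows. The differences of Fut1, Fut7 and Fut10 lay between -0.16 and 0.05, and the pseudogene Fut4-ps1 had 1.99 and 2.97. Without the pseudogene the step median was 0.72.

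Carbohydrate sulfotransferase genes were the one step with a median below 0 as deposited. It was -0.34 over 14 members, -0.62 after centring and -0.67 after level adjustment. The extension median was also below 0 after centring and level adjustment, at -0.21 and -0.22. Below 0 were 10 of 14, where 24.6% of named genes were, and 12 of 14 were below the named-gene median. At least 2-fold lower was 1 member and 0 were higher as deposited, against 2.26% and 7.61% of named genes. Of the 14, 0 were above both limits and 12 were under both, so the step shows a direction among dim signals and no fold of size.

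The 7 genes for sulfation of chondroitin and dermatan, a grouping made after the values were seen, were all below 0, from -1.25 to -0.15. Chst7, a chondroitin sulfotransferase gene, was at 3.37 on the circPan3+/+ array and at 2.12 on the other, the lowest difference of the step at -1.25. Chst12 had 5.73 and 5.38, a difference of -0.35 and at least 1.13-fold lower, and Chst11 had 5.25 and 5.10, a difference of -0.15 with no fold. These last 2 were above the limit on the circPan3+/+ array alone.

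Chst3 had 3.90 and 3.18, Chst14, the dermatan sulfotransferase gene, 3.87 and 3.20, Chst15 4.56 and 3.99, and Chst13 4.52 and 4.19. All 4 lay under both limits. The other 7 genes of the step had a median of 0.15, from -0.83 for Chst1, a keratan sulfotransferase gene, to 0.49 for Chst4. Chst4 and Chst5, whose enzymes sulfate N-acetylglucosamine of mucin-type chains, had 3.61 and 4.11, and 2.45 and 2.77, and were thus slightly higher, while Chst2 of the same activity had 3.42 and 3.06. The mesenchymal markers Vim and Sparc were lower in circPan3-/- cells too, Vim at 8.91 and 7.16. Acta2 was higher, at 4.84 and 6.33, while Col1a1 and Col3a1 lay under both limits with differences of 0.01 and -0.36. Of 5 mesenchymal markers 2 were thus at least 2-fold lower and 1 higher, against 2.26% and 7.61% of named genes. The summed linear signal of these markers was 727 and 319, with Vim the brightest on both arrays. The 4 endothelial markers summed to 380 and 164, with 2 at least 2-fold lower, against the same 2.26%. The part of these markers in the sulfotransferase values was not tested.

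Mucins, the proteins that carry these chains, were higher in several cases. Of 17 listed mucin genes 15 were measured singly, with a median difference of 0.37, and 10 lay under both limits. At least 2-fold higher were 4 and 0 were lower, against 7.61% and 2.26% of named genes. Muc2, the gel-forming mucin of goblet cells and one of their markers above, was at 6.60 on the circPan3+/+ array and at 9.65 on the other, 3.04 or 8.23-fold higher. The membrane mucin Muc13 had 9.16 and 10.49, or 2.52-fold, and the row annotated Muc3a had 5.07 and 6.73, or 3.18-fold, its lower value just above the limit. Muc4 had 3.87 and 5.88, at least 1.77-fold. A separate row annotated Muc3 had 9.13 on both arrays, so the rows of these related membrane mucins disagree. After level adjustment Muc2 was at 2.45, Muc4 at 1.56, Muc3a at 1.14, Muc13 at 0.70 and Muc3 at -0.61. By that measure 3 mucins were at least 2-fold higher, against 2.71% of named genes.

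Genes that supply the sugar donors held several higher members as deposited, fewer after level adjustment. Of 23 listed genes 21 were measured singly, and 17 of them, or 81.0%, were above 0, against 75.4% of named genes. The median was 0.78 as deposited and 0.26 after level adjustment. At least 2-fold higher were 8 as deposited, against 7.61% of named genes, and 1 after level adjustment, Gnpnat1, against 2.71%. Gnpnat1 had 3.75 and 5.54, under both limits, so no fold is given. Gfpt1, the entry enzyme of the hexosamine pathway, had 6.08 and 7.53, or 2.73-fold, and Gmds, which starts GDP-fucose synthesis, had 7.17 and 8.32, or 2.21-fold. Their level-adjusted differences were 0.89 and 0.56.

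The sulfate donor genes parted. Papss2, one of the synthases of the sulfate donor, had 6.94 and 5.71, a difference of -1.23 or 2.35-fold lower between values above both limits. Papss1, which makes the same donor, had 4.72 and 5.97, a difference of 1.25 and at least 1.88-fold higher. Papss2 was thus lower together with most of the sulfotransferases and Papss1 was not; the list's other lower member past 2-fold after level adjustment was Gfpt2, at 4.07 and 3.15 under both limits.

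The 13 listed Slc35 genes belong to a family that includes transporters of sugar nucleotides and of the sulfate donor. Their median was 0.49, or 0.11 after level adjustment. At least 2-fold higher were 2 and 0 were lower, against 7.61% and 2.26% of named genes. Slc35a3, which carries UDP-N-acetylglucosamine, had 4.37 and 5.75, at least 1.61-fold, and Slc35a1, the CMP-sialic acid transporter, had 3.39 and 4.67 under both limits. Slc35b1 had 6.19 and 6.58, and Slc35a4 5.10 and 5.29. After level adjustment 0 were 2-fold apart, but the range was from -0.75 for Slc35b4 to 0.95 for Slc35a1, with Slc35a3 at 0.91.

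Other terminal transferases, outside the families above, had a median near that of all genes, with B4galnt2 well above it. Of 27 listed 26 were measured, with a median of 0.26. At least 2-fold higher were 3 and 0 were lower, against 7.61% and 2.26% of named genes. B4galnt2, which makes the Sd(a) antigen on sialylated chains of the gut, was at 7.21 on the circPan3+/+ array and at 9.22 on the other, 2.01 or 4.02-fold higher, level-adjusted 1.42. B4galnt1, a ganglioside synthase gene, had 5.78 and 6.81, or 2.04-fold. A4gnt, which caps gland mucin, had 1.25 and 2.95 with no fold.

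Among 9 of 12 listed genes for lysosomal and other enzymes that remove sugars, the median was 0.38. In either direction 0 of the 9 were 2-fold apart, against 7.61% of named genes higher and 2.26% lower. For 9 genes a count of 0 lies near those shares. Hexa had 6.41 and 6.79, and Fuca1, the lysosomal fucosidase, 6.25 and 6.49. These were the only 2 of the list above both limits. Differences of degrading enzymes ran from -0.16 for Neu1 to 0.57 for Fuca2, a narrower span than that of any building step.

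**Figure D4:**
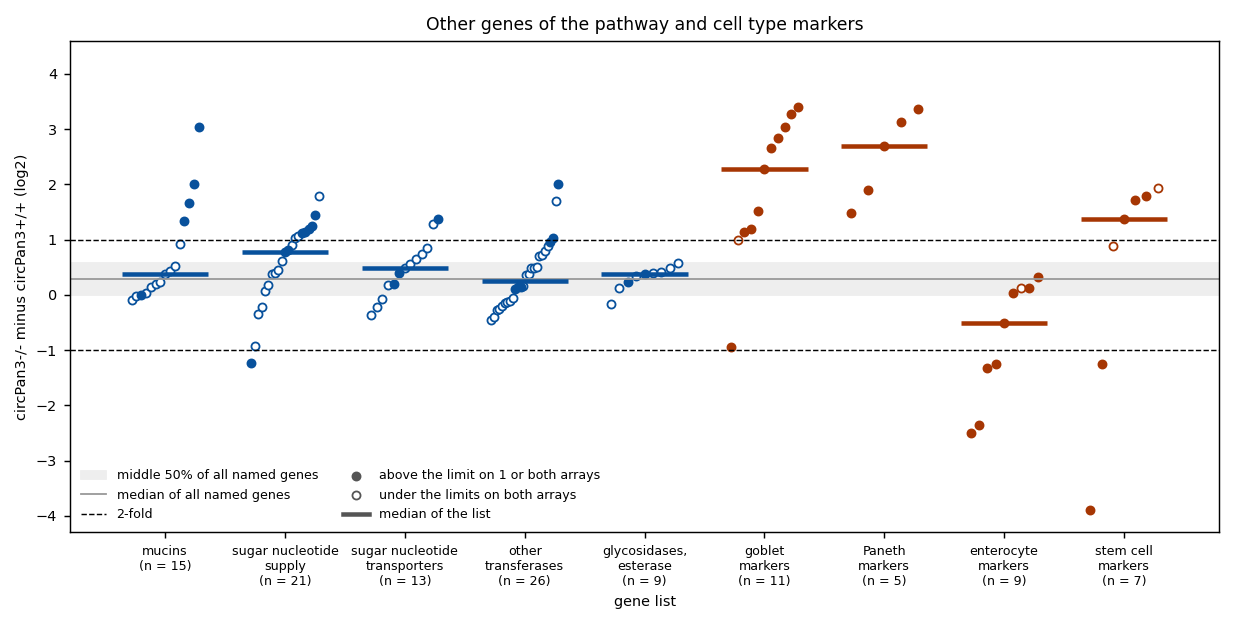
Difference between the arrays (vertical axis, circPan3-/- minus circPan3+/+, log2) for the other pathway lists and for goblet, Paneth, enterocyte and stem cell markers. Each point is 1 gene, filled if above the limit on 1 or both arrays, and short lines are list medians. Pathway medians ran from 0.26 for other terminal transferases to 0.78 for sugar nucleotide supply. Marker medians ran from -0.51 for enterocyte to 2.69 for Paneth markers. Dashed lines mark 2-fold. Among pathway points above both limits, Muc2 at 3.04 and B4galnt2 at 2.01 lie highest and Papss2 at -1.23 lowest. Among marker points above both limits, Klk1 at 3.40 lies highest and Lgr5 at -3.89 lowest.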

How the data were processed

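Total RNA of flow-sorted cells was read on Affymetrix Clariom D mouse arrays, 1 per genotype. The submitters' processing notes name Affymetrix Power Tools and RMA, which corrects background, normalizes and summarises probes by median polish. Neither versions nor a build were stated. The values the authors deposited are taken as log2 signals from their range, -0.18 to 13.07, because the table states no unit. The number of arrays limits the precision.

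Gene symbols came from the annotation of the array platform, updated through RefSeq (GRCm38.p6); of 72688 rows, 31261 had 1 symbol, 1489 several and 39938 none. A symbol in other case counted once, and B3galtl, now B3glct, was left out. Each member had 1 row, so no choice between rows arose. Differences were compared with 18316 named genes: protein-coding in RefSeq and not predicted models. No filter on level was used.

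No detection calls were used. The 95th percentile of 5222 negative control rows served as each array's limit. A value under its limit was replaced by that limit and the fold given as a bound, "at least"; where the brighter value was under its own limit, or the bound was below 1, no fold is given. Centring subtracted the median difference of the named genes; loess (span 0.3, statsmodels 0.14.6) subtracted the difference usual at a gene's mean level; quantile normalization used all rows. The functions were tested on simulated data. Members and lists were chosen with earlier results of these data known. The genes named were, in each step, up to 3 with the highest and 3 with the lowest difference among members above a limit on at least 1 array. Added to these were members at least 2-fold apart with bounds, members above both limits with a difference at or below 0, all initiation members, and C1galt1, C1galt1c1, B3gnt6, Gcnt3 and Fut2; of each other pathway list, up to 2 in each direction. St6galnac1, which heads the pathway too, has no row of its own. Members named outside this rule were chosen after their values were seen, as were the marker genes given as examples, the promoters and the motifs.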

Additional observations from a re-analysis of the deposited data

How the results depend on the processing

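With 1 array per genotype no choice of processing shows which differences would return in other mice, and 66 of 87 members lie under the negative control limits, where no fold can be given. No paired analysis was possible because there was 1 array of each genotype and no replicate to leave out. The shift between the arrays decides the sign of small differences, and of the 37 members named by rule the sign turned in 8 after centring, 6 after loess and 7 after quantile normalization; no member at least 2-fold apart turned. Centring gave medians of -0.0425 over all members, 0.19 for initiation, 0.32 for core, -0.21 for extension, 0.0253 for sialylation, 0.46 for fucosylation and -0.62 for sulfation, with 8 members higher and 5 lower. Loess gave -0.0085, 0.30, 0.0673, -0.22, 0.0676, 0.57 and -0.67 in the same order, with 6 higher and 3 lower. Quantile normalization gave -0.0197, 0.31, 0.28, -0.15, 0.10, 0.59 and -0.64, with 8 higher and 4 lower. Keeping the 15 members whose mean passed the mean limit gave 0.53 over all, 0.86 for initiation, -0.0321 for extension, 1.35 for sialylation and 1.07 for fucosylation, these last being the single members St3gal4 and Fut8, with 5 higher and 0 lower. Keeping the 23 members whose circPan3+/+ value no other row shared gave 0.96 for initiation, 0.44 for core, 0.45 for fucosylation and -0.15 for sulfation, with 4 higher and 0 lower. Keeping the 73 members above the row median put sialylation at 0.16. At 1.5-fold 22 members were higher and 6 lower, and with values under a limit set to that limit 6 and 0. Averaging rows of a gene changed nothing because no member had several, and leaving out the noncoding members, an alternative chosen after seeing the data, left the median over all members at 0.23. The filters' counts are out of fewer members: 5 of 15 and 4 of 23 were higher, against 12 of 87 with no filter. The cause of the changes was not tested.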
